A study of Mus musculus with 4 samples.

Results

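The 7 genes that encode the subunits of the NMDA receptor, Grin1, Grin2a, Grin2b, Grin2c, Grin2d, Grin3a and Grin3b, were followed in whole brain of mice without the RNA-editing enzyme ADAR2. They were found by gene symbol in the deposited array table, where they are represented by 11 of 33793 transcript clusters. Such a cluster is a set of probes placed along a transcribed locus and summarised to a single signal. Of the 11 clusters, 7 lie on the strand of their gene and give 1 measurement per subunit gene. The other 4 carry the symbol Grin1, Grin2b, Grin2c or Grin2d but lie on the strand opposite to the gene.

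Whole brain came from female adults (strain 129SV), aged 5.5 months by the study's methods. There were 2 wild type arrays and 2 Adar2 knockout arrays, the latter from mice with both copies of Adarb1, the gene of ADAR2, disrupted. By the same methods both genotypes also carried the pre-edited Gria2 R/R allele of the AMPA receptor subunit GluA2, which keeps Adar2 knockout mice alive, and were siblings from crosses of heterozygous parents. The controls are therefore wild type for Adarb1 but not for Gria2. The label "wild type" is used below in that sense. The labels number the samples without saying whether each is 1 animal, so p-values measure the spread between these arrays.

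NMDA receptors are glutamate-gated channels that let calcium into neurons and start many forms of synaptic plasticity. Each channel is assembled from several of the subunits. GluN1, from Grin1, is obligatory and binds the co-agonist glycine or D-serine. GluN2 subunits, from Grin2a to Grin2d, bind glutamate and set how long the channel stays open, while GluN3 subunits, from Grin3a and Grin3b, bind glycine and lower calcium entry. In the forebrain the GluN2B subunit dominates early and GluN2A is added as synapses mature, whereas GluN2C is typical of cerebellar granule neurons and GluN2D of the brainstem and of interneurons. The best known substrate of ADAR2 is the transcript of the AMPA receptor subunit GluA2, not of an NMDA receptor subunit. The question the comparison addresses is whether transcript levels of these subunits differed when ADAR2 was absent. The deposited cluster signals report transcript amounts and hold no information on editing or on splice forms.

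Sequence upstream of an annotated transcript start is shown for Grin1, whose signal was the steadiest of the 7 on the 4 arrays, and for Grin3b, which lies on the same chromosome as Adarb1. Both runs are the 250 bases before a start given for the gene by RefSeq in build GRCm38.p6, on the strand of the gene. For Grin1 this start is the edge of the RefSeq gene span. For Grin3b the span begins further upstream, at 79970397, so that the window lies inside it and its last bases overlap the Grin3b cluster. Capitals mark the E-box CACGTG and the TATA-type motif TATAAA, which were searched on both strands together with the GC box GGGCGG. The first window is chr2:25319188-25319437 on the minus strand and the second chr10:79970474-79970723 on the plus strand.
Grin1: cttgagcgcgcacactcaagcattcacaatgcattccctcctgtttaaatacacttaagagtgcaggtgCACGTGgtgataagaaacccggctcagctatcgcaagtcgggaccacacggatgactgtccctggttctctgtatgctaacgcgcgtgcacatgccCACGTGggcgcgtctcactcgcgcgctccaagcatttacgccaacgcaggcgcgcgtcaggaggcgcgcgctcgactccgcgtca
Grin3b: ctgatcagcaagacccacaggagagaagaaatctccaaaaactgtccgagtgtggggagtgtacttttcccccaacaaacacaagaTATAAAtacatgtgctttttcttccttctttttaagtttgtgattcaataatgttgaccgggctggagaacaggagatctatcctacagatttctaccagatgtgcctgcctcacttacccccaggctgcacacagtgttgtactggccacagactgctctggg
The Grin1 window held 27 CpG dinucleotides and the Grin3b window 2, where the median over 27025 genes was 6. CACGTG was found at 2 places in the Grin1 window and is present in 6.05% of the windows of all genes. TATAAA was found at 1 place in the Grin3b window and is present in 13% of them. GGGCGG was found in neither window, was present 3 times in the window of Grin2c, and is held by 32.9% of all windows. These are matches of letters and say nothing on the binding of a factor.

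Over the whole array, median log2 signals ranged from 6.03 to 6.09 and Pearson's r between arrays, across clusters that are not independent replicates, from 0.993 to 0.995. Detection calls were not given, and unspecific signal was judged from 5 clusters of the Y chromosome, absent from female animals, whose signals were between 3.49 and 5.43. The neuronal markers Rbfox3, Snap25 and Syt1 lay between 10.82 and 13.16 on the 4 arrays. The summed linear signal of 8 clusters of neuronal marker genes was 23992 to 24567 in wild type and 23125 to 23184 in Adar2 knockout brain. Of these 8 clusters 4 were higher and 4 lower in the knockout, with a median log2 fold change of 0.005. Adarb1 (chromosome 10, 77290726 to 77418273, minus strand) had log2 signals of 10.50 and 10.45 in wild type and 9.16 and 8.96 in knockout brain, lower on both arrays labelled as knockout. The decrease was 1.42 on the log2 scale (limma unadjusted p 2.57e-05, adjusted p 0.409), and the exact two-sided permutation p was 0.333, the smallest that 2 against 2 arrays can give. Markers of the olfactory bulb and of tissues next to the brain differed between the arrays. The summed signal of 11 pituitary clusters was 449 to 548 in wild type and 1533 to 2523 in the knockout, and that of 12 salivary gland clusters was 478 to 508 on the other arrays and 8313 on Adar2 knockout replicate 1. That of 7 olfactory bulb clusters was 2004 on Adar2 knockout replicate 2 and 2568 to 3023 on the other arrays.  Their part in the values below was not tested, and each subunit gene is given with its range when single arrays were left out.

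None of the 7 subunit transcripts changed detectably in the absence of ADAR2. Their log2 fold changes, knockout minus wild type, ran from -0.19 for Grin2a to 0.14 for Grin3b, with 4 lower and 3 higher. The median was -0.035, and the median of all 33793 clusters was 0.005. After median centring these were -0.075 and -0.035, after quantile normalization 0.0037 and -0.0031, and after cyclic loess 0.015 and 0.0014. For clusters above the median signal, to which the 7 belong, the median was -0.025 as deposited and -0.065 after median centring. It was -0.0038 after quantile normalization and 0.0017 after cyclic loess. In limma 0 of the 11 clusters passed an adjusted p of 0.05, and 0% of all clusters did so. The unadjusted limma p was below 0.05 for 0 of the 11 as well, while 5.95% of all clusters passed, 3.64% with the knockout higher and 2.31% with the knockout lower. The share over all clusters corresponds to fewer than 1 cluster in 11, so that a count of 0 does not set the subunits apart. The unadjusted p of the 11 clusters ranged from 0.151 to 0.908 and the adjusted p from 0.856 to 0.991. Signals of different clusters come from different probes, so genotypes are compared below within a cluster, between arrays. Exceptions are comparisons with the Y-linked signals or the median signal, and the difference of Grin2a and Grin2b within an array. Coordinates are those of the deposited table, which names no build for them. Its descriptions of Ensembl transcripts cite NCBIM37, while the coordinates of the 11 clusters overlap the GRCm38.p6 spans of the genes.

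**Figure D1:**
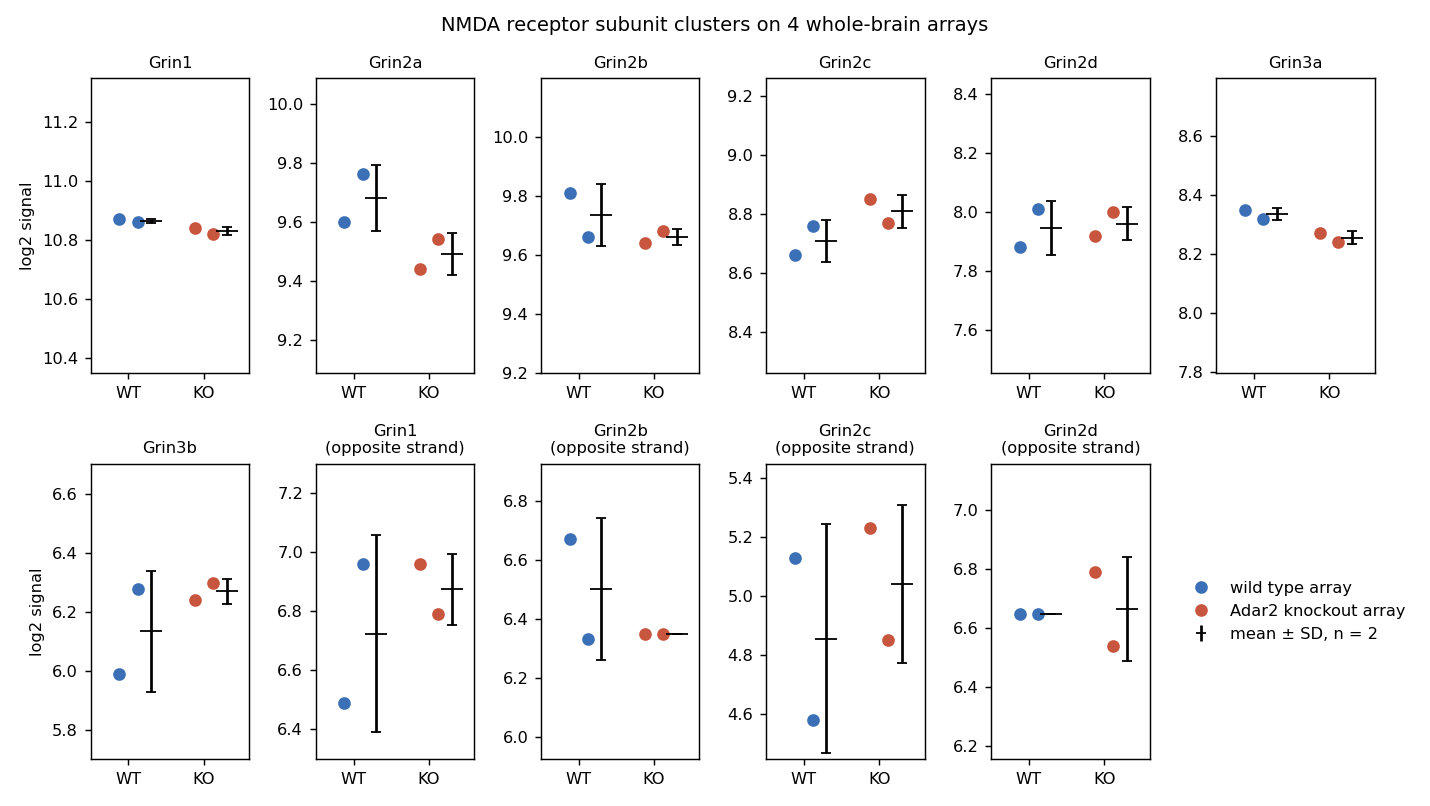
Log2 signal of each subunit cluster on the 2 wild type (WT, blue) and 2 Adar2 knockout (KO, red) arrays, with the mean and SD in black; each panel spans 1 log2 unit, but the panels start at different levels. The arrays of the 2 genotypes lay apart for Grin1, Grin2a, Grin2c and Grin3a, by less than the height of a panel, and intermingled in the other panels.

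Grin1 encodes the subunit that every NMDA receptor needs. On the strand of the gene, its cluster (chromosome 2, 25291177 to 25319187, minus strand, 26 probes) begins directly after the last base of the window printed above. The cluster had log2 signals of 10.87 and 10.86 in wild type and 10.84 and 10.82 in knockout brain. All 4 values fell within 0.050 of each other, whereas the median range over all clusters was 0.28. Both knockout arrays were below both wild type arrays, but the log2 fold change was only -0.035 (SE 0.10, adjusted limma p 0.979). The 95% interval from -0.28 to 0.21 leaves room for a fall to 0.821 or a rise to 1.16 times the wild type level. Leaving out single arrays gave -0.045 to -0.025, but the change was 0.0037 after quantile normalization and 0.015 after cyclic loess.

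Grin2a, the gene of the GluN2 subunit typical of mature forebrain synapses, showed the largest difference of the 7 as deposited with all 4 arrays. Its cluster (chromosome 16, 9577710 to 9994921, minus strand, 18 probes) was at 9.60 and 9.76 in wild type and at 9.44 and 9.54 in knockout brain. The knockout arrays were lower without overlap, and the mean difference exceeded the 0.16 by which the wild type arrays differed from each other. The log2 fold change was -0.19 (SE 0.12, unadjusted limma p 0.151, adjusted p 0.856), a level 0.877 times that of wild type. Its 95% interval ran from -0.47 to 0.094, so neither a fall to 0.72 times nor a rise to 1.07 times the wild type level is outside it. Leaving out single arrays gave -0.27 to -0.11. Without wild type replicate 2, which gave the -0.11, the changes of Grin2b (-0.15), Grin2c (0.15) and Grin3b (0.28) were larger in size, as was that of Grin3b (0.17) without Adar2 knockout replicate 1. Markers of forebrain excitatory neurons, which express Grin2a, were lower in 7 of 8 clusters. Their summed signal was 13149 to 13518 in wild type and 12451 to 12722 in knockout brain. Markers of striatal projection neurons, oligodendrocytes and microglia were also each lower in 7 of 8 clusters. Those of GABAergic interneurons were lower in 4 of 9 and those of choroid plexus in 2 of 8. Of all 33793 clusters on the array, 16133 were lower. The part of the forebrain markers in the Grin2a value was not tested. In bulk tissue fewer cells of a type and less RNA per cell cannot be told apart.

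Grin2b, which encodes the GluN2 subunit that dominates in the young forebrain, did not separate the genotypes. Its cluster (chromosome 6, 135729795 to 136173511, minus strand, 24 probes) was at 9.81 and 9.66 in wild type and 9.64 and 9.68 in knockout brain, so that the second knockout array lay between the wild type arrays. The log2 fold change of -0.075 (SE 0.11, 95% interval -0.35 to 0.20, adjusted limma p 0.947) was smaller than the 0.15 between the wild type arrays. Leaving out single arrays gave -0.15 to 0, the latter without wild type replicate 1, the array with the highest Grin2b signal. The change was -0.12 after median centring, -0.029 after quantile normalization and -0.026 after cyclic loess.

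The relation of these 2 subunits is often used as a sign of synaptic maturation, and was compared as the log2 signal of Grin2a minus that of Grin2b within each array. It was -0.21 and 0.10 in wild type and -0.20 and -0.14 in knockout brain. The change of -0.12 was smaller than the difference between the wild type arrays, and the exact two-sided permutation p was 1. With single arrays left out it ranged from -0.27 to 0.040, the latter without wild type replicate 2. The value itself depends on the probes and is no ratio of transcript numbers.

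Grin2c encodes the GluN2 subunit of cerebellar granule neurons and of some astrocytes. Its cluster (chromosome 11, 115249169 to 115267243, minus strand, 29 probes) was at 8.66 and 8.76 in wild type and at 8.85 and 8.77 in knockout brain. The genotypes did not overlap, but only 0.010 separated the highest wild type from the lowest knockout array. The log2 fold change was 0.10 (SE 0.11, 95% interval -0.17 to 0.37, adjusted limma p 0.919), and it ranged from 0.050 to 0.15 when single arrays were left out. Of the granule neuron markers 10 of 12 clusters were lower in the knockout, with a summed signal of 11469 to 11723 in wild type and 10392 to 10800 in the knockout. Of the astrocyte markers 6 of 8 clusters were lower, with 13735 to 14122 in wild type and 13362 to 13397 in the knockout. Of all 33793 clusters on the array, 16133 were lower. The part of either marker list in the Grin2c value was not tested.

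Grin2d, the GluN2 gene of brainstem neurons and interneurons, had the smallest change of the 7 as deposited, but not after quantile normalization or cyclic loess, where that of Grin1 was smaller. Its cluster (chromosome 7, 45831883 to 45870928, minus strand, 27 probes) was at 7.88 and 8.01 in wild type and 7.92 and 8.00 in knockout brain, and both knockout values lay between the wild type values. The log2 fold change was 0.015 (SE 0.11, 95% interval -0.26 to 0.29, adjusted limma p 0.989). It was -0.025 after median centring and between -0.050 and 0.080 when single arrays were left out.

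Of the GluN3 genes, Grin3a (chromosome 4, 49661611 to 49845744, minus strand, 26 probes) had 8.35 and 8.32 in wild type and 8.27 and 8.24 in knockout brain. The knockout arrays were lower without overlap, with a gap between the genotypes larger than the 0.030 within either of them. The log2 fold change was -0.080 (SE 0.10, 95% interval -0.33 to 0.17, adjusted limma p 0.935), and it remained between -0.10 and -0.065 when single arrays were left out. It was -0.12 after median centring, -0.036 after quantile normalization and -0.042 after cyclic loess.

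Grin3b, the other GluN3 gene, is best known from motor neurons. Its cluster (chromosome 10, 79970715 to 79977190, plus strand, 22 probes) was at 5.99 and 6.28 in wild type and at 6.24 and 6.30 in knockout brain. The second wild type array lay between the knockout arrays, and the log2 fold change of 0.14 (SE 0.13, 95% interval -0.19 to 0.46, adjusted limma p 0.908) was smaller than the 0.29 between the wild type arrays. Leaving out single arrays gave -0.010 to 0.28, the former without wild type replicate 1, the lowest array. All 4 signals were above the highest Y-linked signal of 5.43.

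Grin3b is also the subunit gene nearest to the targeted locus. In the coordinates of the file its cluster lies 2.55 Mb beyond that of Adarb1 on chromosome 10, and 106 clusters lie between them. Of these, 5 (4.72%) had an unadjusted limma p below 0.05, against 5.95% of all clusters, and their median log2 fold change was 0.043. Sequence of the targeted embryonic stem cells can remain around such a locus, and its part in the Grin3b signal was not tested.

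**Figure D2:**
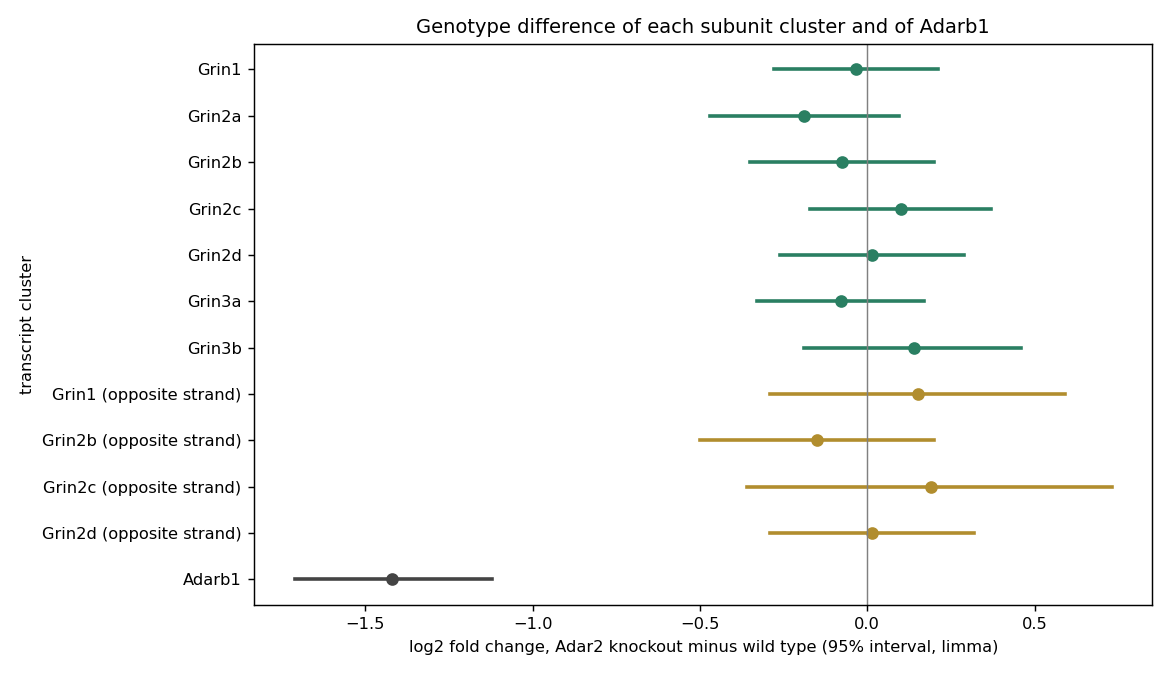
Log2 fold change, Adar2 knockout minus wild type, with the 95% interval of limma, for the 7 clusters on the strand of the subunit genes (green), the 4 on the opposite strand (ochre) and Adarb1 (grey). All 11 subunit intervals contain 0 and that of Adarb1, from -1.71 to -1.12, lies below each of them.

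The intervals give the changes that are compatible with these arrays and are not a limit of detection. Even the change of Adarb1, -1.42, had an adjusted limma p of 0.409. Over the 7 subunit genes the lowest bound was -0.47 (Grin2a) and the highest 0.46 (Grin3b), which are a 1.39-fold fall and a 1.38-fold rise. They rest on 2 arrays per genotype and on a spread that limma borrows in part from all clusters, and a change of the size of that of Adarb1 lay outside all of them. Genotypes without overlap were seen for Grin1, Grin2a and Grin3a, with the knockout lower, and for Grin2c, with the knockout higher. Over all clusters 16.5% had the knockout lower and 17.7% had it higher without overlap. Among clusters above the median signal, to which all 7 belong, these shares were 21.9% and 12.4%, and after median centring 31.3% and 7.98%. After quantile normalization they were 17.7% and 15.7%, and after cyclic loess 17.4% and 17.1%. After median centring Grin2c overlapped, and after quantile normalization or cyclic loess Grin1 overlapped, whereas Grin2a and Grin3a were lower without overlap under all 4 scalings.

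**Figure D3:**
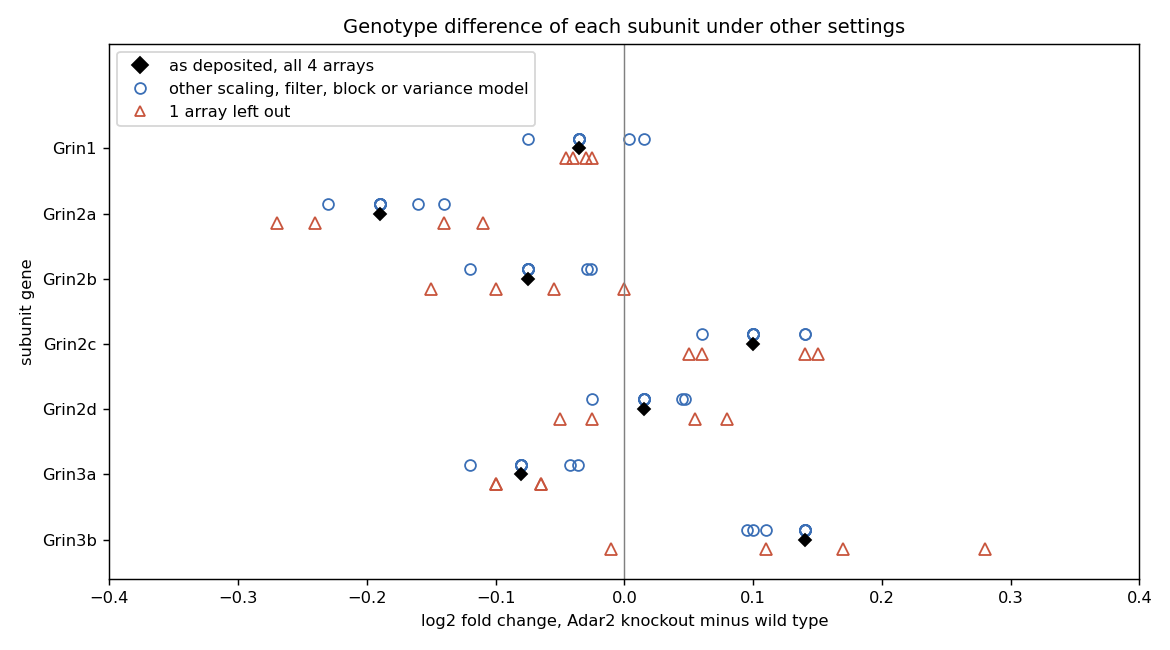
Log2 fold change, Adar2 knockout minus wild type, of the 7 subunit genes as deposited (black), under another scaling, filter, block or variance model (blue circles) and with 1 array left out (red triangles). Grin2a and Grin3a stay below 0 and Grin2c stays above 0 in these settings, Grin2b reaches 0, and Grin1, Grin2d and Grin3b take both signs.

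The 4 clusters on the opposite strand did not change detectably either. That of Grin1 (chromosome 2, 25291220 to 25298928, plus strand) lies wholly inside the gene, towards its end, and was at 6.49 and 6.96 in wild type and 6.96 and 6.79 in knockout brain. That of Grin2b (chromosome 6, 136173061 to 136175664, plus strand) spans the start of the gene, with 451 bases inside the Grin2b cluster and 2153 bases upstream of it, and was at 6.67 and 6.33 in wild type and at 6.35 on both knockout arrays. In both cases wild type replicate 1 stood apart from the other 3 arrays. That of Grin2d (chromosome 7, 45830895 to 45835249, plus strand) extends 988 bases past the end of the gene and was at 6.65 on both wild type arrays and at 6.79 and 6.54 in knockout brain. That of Grin2c (chromosome 11, 115253278 to 115253385, plus strand) covers 108 bases and was at 5.13 and 4.58 in wild type and at 5.23 and 4.85 in knockout brain, within the range of Y-linked genes. The log2 fold changes were 0.15, -0.15, 0.015 and 0.19 for Grin1, Grin2b, Grin2d and Grin2c, with SE of 0.12 to 0.22 and adjusted limma p of 0.906 to 0.991. The genotypes overlapped in all 4. Whether these clusters detect RNA of the opposite strand was not tested.

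The rule on similar profiles compared the 4 array values, each centred on its own mean, between the subunit with the widest range and all clusters with a single symbol. On the strand of the genes the widest range was that of Grin2a (0.32). The nearest profiles were those of Hif1an (root mean square difference 0.00433), Adprh (0.0109) and Olfr1026 (0.0109). In all, 24 clusters came within 0.020 of Grin2a. The signals of Olfr1026, from 3.06 to 3.36, lay below the range of the Y-linked genes. Over all 11 clusters the widest was the Grin2c cluster on the opposite strand (0.65), nearest to Cyp4a31 (0.0192), Mcpt4 (0.0296) and Arf4 (0.03), and 1 cluster came within 0.020 of it. No signal of these clusters of Cyp4a31, Mcpt4 and Arf4 was above the highest Y-linked signal of 5.43, which says nothing on other probes of the genes.

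Around the channel, 6 lists of pathway genes were examined, with 117 clusters matched by symbol. Of these, 5 (4.27%) passed an unadjusted limma p of 0.05, 4 lower and 1 higher in the knockout, against 5.95% of all clusters, and 0 had an adjusted p below 0.05. The share was 8.33% in the list of the postsynaptic scaffold, 9.09% among kinases and phosphatases and 6.67% in glutamate handling, from 1 or 2 clusters each, and 0% in the other 3 lists. Their median log2 fold change was -0.025, and it was -0.065 after median centring, 0.0044 after quantile normalization and 0.023 after cyclic loess. Without overlap, 37 clusters were lower and 12 higher as deposited, 51 and 4 after median centring, 26 and 25 after quantile normalization, and 23 and 29 after cyclic loess. As shares of the 117 these were 31.6% lower and 10.3% higher as deposited, 43.6% and 3.42% after median centring, 22.2% and 21.4% after quantile normalization, and 19.7% and 24.8% after cyclic loess. Over all clusters the shares lower and higher in the same order were 16.5% and 17.7%, 23.4% and 12.5%, 17.2% and 16.2%, and 17.1% and 17.2%. As deposited, clusters above the median signal, to which 111 of the 117 belong, were lower without overlap in 21.9% and higher in 12.4%, and after median centring in 31.3% and 7.98%.

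**Figure D4:**
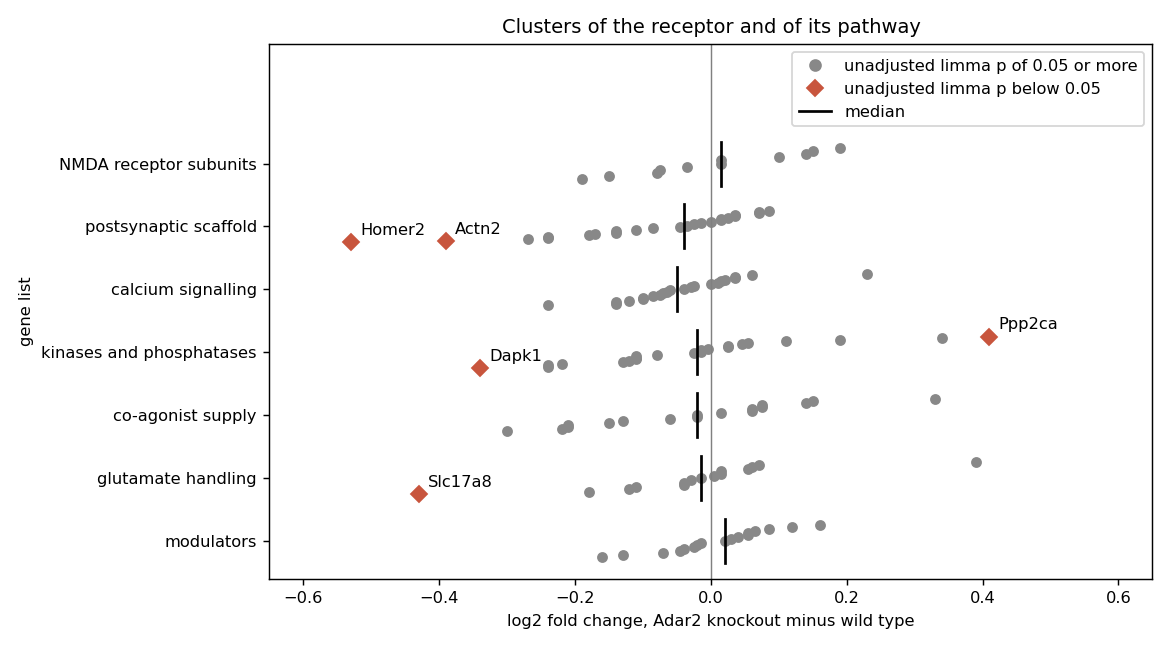
Log2 fold change, Adar2 knockout minus wild type, of each cluster of the NMDA receptor subunits and of 6 lists of pathway genes; red diamonds have an unadjusted limma p below 0.05 and black lines are list medians. The medians lie between -0.050 and 0.020, and 5 clusters outside the subunits are marked.

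The postsynaptic scaffold anchors NMDA receptors in the synapse. An unadjusted limma p below 0.05 was found for 2 of its 24 clusters, both lower in the knockout, and the median was -0.040. Actn2, whose product alpha-actinin-2 links receptor tails to actin, was at 7.90 and 7.84 in wild type and 7.59 and 7.38 in knockout brain, a log2 fold change of -0.39 (SE 0.12, unadjusted limma p 0.019, adjusted p 0.834). Homer2, an adaptor between Shank proteins and metabotropic glutamate receptors, was at 7.97 and 7.48 in wild type and 7.31 and 7.08 in knockout brain, with a log2 fold change of -0.53 (SE 0.19, unadjusted limma p 0.0317, adjusted p 0.834), while the wild type arrays differed by 0.49. Beside these, the summed signal of 8 clusters of striatal projection neuron markers was 8185 to 8764 in wild type and 7385 to 7703 in knockout brain, and its part in them was not tested.

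Among the genes for calcium signalling downstream of the receptor, 0 of 22 clusters passed that p, with a median of -0.050. The lowest p-values among clusters were those of Ppp3cb, a catalytic subunit of calcineurin (-0.24, unadjusted limma p 0.125, adjusted p 0.848), and of Nos1, the neuronal nitric oxide synthase that is tethered to the receptor by PSD-95 (-0.14, unadjusted limma p 0.259, adjusted p 0.886). Among kinases and phosphatases that act on the receptor, 2 of 22 clusters were below 0.05 and the median was -0.020. Dapk1, a death-associated kinase that binds GluN2B, was at 9.87 and 9.63 in wild type and at 9.41 on both knockout arrays, a log2 fold change of -0.34 (unadjusted limma p 0.0339, adjusted p 0.834). A cluster named Ppp2ca, the catalytic subunit of protein phosphatase, was at 7.56 and 7.83 in wild type and 8.27 and 7.94 in knockout brain, a log2 fold change of 0.41 (unadjusted limma p 0.0449, adjusted p 0.834). It is 1 of 4 clusters with that symbol and lies on the minus strand, opposite to the gene, and the cluster that spans the gene on the plus strand had a log2 fold change of 0.025.

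Supply and clearance of the co-agonists glycine and D-serine were covered by 17 clusters, of which 0 had an unadjusted limma p below 0.05, with a median of -0.020. The lowest p-values were those of Gldc, of the glycine cleavage system (-0.30, unadjusted limma p 0.0804, adjusted p 0.835), and of Shmt2, which makes glycine from serine in mitochondria (-0.22, unadjusted limma p 0.0848, adjusted p 0.835). Loading, uptake and recycling of glutamate were covered by 15 clusters, of which 1 was below 0.05, with a median of -0.015. Slc17a8, the vesicular glutamate transporter VGLUT3, was at 6.63 and 6.70 in wild type and 6.15 and 6.33 in knockout brain, a log2 fold change of -0.43 (SE 0.12, unadjusted limma p 0.0111, adjusted p 0.834). The modulators and binding proteins outside the channel had 0 of 17 clusters below 0.05 and a median of 0.020. The lowest p-value in that list was that of Kalrn, a guanine nucleotide exchange factor of dendritic spines (-0.16, unadjusted limma p 0.21, adjusted p 0.872).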

How the data were processed

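Total RNA of whole brain (2 samples per genotype) was prepared with a kit for whole transcripts and run on Affymetrix gene arrays at a core facility. The authors deposited normalized log2 signals, given to 2 decimals, for 33793 transcript clusters. The submitters' processing notes name Affymetrix Expression Console and RMA without versions, and no build is named for the coordinate columns, although transcript descriptions cite NCBIM37. All 11 subunit clusters overlapped the RefSeq span of their gene in GRCm38.p6. The table also holds the authors' means, log ratios, fold changes and p-values, which were not used.

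The genotypes were compared on these deposited values in R 4.3.3 by linear models and moderated two-sided tests of limma 3.58.1, with genotype alone in the model. Benjamini-Hochberg adjustment ran over all clusters, with no filter. Intervals are at 95%. The number of arrays limits the precision. The fits were tested on simulated data. Exact permutation tests used scipy 1.17.1. Strands of genes came from RefSeq or from transcript descriptions in the table.

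The receptor genes, pathway lists, markers and tests were chosen with earlier results of these data known. Named were all subunit clusters, Adarb1, per list up to 4 genes with an unadjusted p below 0.05 and no overlap, or the 2 lowest p-values where a list had none, and the 3 nearest array profiles. Not every item that this rule names is reported here. Alternatives were 3 scalings, removal of dim clusters, a block for replicate number, omission of each array, trended and robust eBayes, a test without shrinkage and removal of clusters that can cross-hybridize. Counting only the 7 clusters on the gene strand was added after seeing the data. Replicate numbers did not pair the arrays by the labels.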

Additional observations from a re-analysis of the deposited data

How the results depend on the processing

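No subunit cluster passed an unadjusted or an adjusted limma p of 0.05 in any of the 13 alternatives, nor among the 7 clusters on the gene strand. The median of the subunits, 0.015 over 11 clusters and -0.035 over those 7, was below 0, from -0.045 to -0.010, over the 11 clusters with any single array left out. Single clusters turned sign in 4 refits with another scaling and 8 with an array left out, whereas the filters, the block and the other variance models leave a fold change as it is. Grin1 was 0.0037 after quantile normalization and 0.015 after cyclic loess, and Grin2d and its opposite-strand cluster each moved to -0.025 with median centring, which shifts all clusters. With single arrays left out the ranges were -0.050 to 0.080 for Grin2d, -0.010 to 0.28 for Grin3b, and, on the opposite strand, -0.085 to 0.39 for Grin1, -0.32 to 0.020 for Grin2b, -0.090 to 0.46 for Grin2c and -0.11 to 0.14 for Grin2d. Grin2a minus Grin2b ranged from -0.27 to 0.040. The change of Adarb1 ranged from -1.52 to -1.32 with single arrays left out, with an unadjusted p below 0.05 in every alternative.

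The 5 pathway clusters with an unadjusted p below 0.05 became 10 with an intensity trend in eBayes and 9 in the pooled-variance test without shrinkage, and 1 to 5 with single arrays left out (1 without Adar2 knockout replicate 1, 3 without Adar2 knockout replicate 2 and 2 when wild type replicate 1 was dropped). The cause was not tested. Of all clusters, 5.83% passed with the trend and 5.61% without shrinkage, where the pathway shares were 8.55% and 7.69%, and 3.61% to 5.33% with single arrays left out. Same-numbered arrays did not deviate together (r = 0.0516 across clusters). Blocking on the replicate number left 0 subunit clusters and 5 pathway clusters with an unadjusted p below 0.05.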

Other observations

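Besides the named clusters, the Grin2b locus holds 3 clusters without a gene symbol on the strand opposite to the gene. One (chromosome 6, 135732870 to 135744311) was at 5.60 and 5.61 in wild type and 5.56 and 5.65 in knockout brain, another (135740997 to 135741101) at 5.87 and 5.75 against 5.78 and 5.58, and the third (135875505 to 135882574) at 3.22 and 2.77 against 3.01 and 2.78. The genotypes overlapped in all 3.

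At the end of Grin1, Lrrc26, which lies on the other strand and overlaps the Grin1 cluster by a few bases, was at 6.40 and 6.46 in wild type and at 6.78 and 6.72 in knockout brain. Its log2 fold change of 0.32 (SE 0.10) had an unadjusted limma p of 0.0226 and an adjusted p of 0.834. Lrrc26 was named after its values were seen, as the only cluster that overlaps a subunit gene on either strand and has an unadjusted p below 0.05. At the end of Grin3b, a cluster named ORF61 on the minus strand was at 10.85 and 11.10 in wild type and at 10.95 and 10.99 in knockout brain, with a log2 fold change of -0.0050.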
